A study of Sus scrofa domesticus with 150 samples.

Results

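The interleukin-1 genes followed here are the ligands IL1A, IL1B, IL18 and IL33, the receptor antagonist IL1RN, the receptor chains IL1R1, IL1RAP and IL1RL1, and the decoy receptor IL1R2. They were taken from the count table by symbol. The 9 symbols matched 10 of 30461 gene rows, because IL1R2 also named a pseudogene row, identified only by its protein match. The samples were full-thickness skin wounds of 6 female Yorkshire-mix pigs, 2 cm across, all dressed in the same way, with no treatment compared and no genetic change in any group. A 3.5 mm biopsy of the wound edge and one of the wound center were taken from each of 72 wounds. Each wound was sampled on 1 day only, so different days compare different wounds. The 14 sampled days ran from day 1 to day 21, and whole excised skin without a location stood for day 0. Together with the 6 day 0 samples the biopsies gave 150 samples in 29 wound tissue states. Each location had 6 samples per day on 10 days and 3 samples per day on days 15, 16, 19 and 21. Only 3 animals were sampled on a given day, animals 1 to 3 or animals 4 to 6, and the sets changed from each sampled day to the next except between days 16 and 19, both of animals 4 to 6. Most neighbouring days thus compare different animals, and 2 wounds of 1 animal share that animal, so p-values over 6 samples of 3 animals are too small.

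IL-1α and IL-1β, the products of IL1A and IL1B, signal through IL1R1 together with the accessory chain IL1RAP and switch on genes of neutrophil recruitment and matrix breakdown. IL1RN encodes a protein that occupies IL1R1 without signalling, and IL1R2 binds the ligands but lacks a signalling tail. IL-18 and IL-33 are relatives that use receptors of their own, and IL1RL1 (ST2) is the receptor for IL-33. IL-1α and IL-33 are known as alarmins, released when barrier cells are damaged.

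IL1A and IL1B lie on contig LUXX01011191.1 (1172424 to 1185179 and 1226868 to 1234129, minus strand), and IL1RN on contig LUXX01049942.1 (281689 to 296568, minus strand). IL1R2 (1389818 to 1428845), IL1R1 (1507801 to 1603470) and IL1RL1 (1830947 to 1978575) lie on the plus strand of contig LUXX01054881.1. The IL1R2 pseudogene row (1415340 to 1416922) lies inside IL1R2 on the same strand, so reads of the gene and of the pseudogene may be shared between the rows. IL1RAP, IL18 and IL33 lie on contigs LUXX01006048.1, LUXX01060653.1 and LUXX01061698.1. The row named IL1RL1 carries a protein description of the IL-18 receptor, although a row for that receptor exists, so its identity is uncertain.

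Library totals ran from 13133379 to 24895572 counts, so 3 counts correspond to 0.121 to 0.228 CPM (counts scaled to a common library total of 1e+06). A total of 8 libraries, a fixed list, were treated as standing apart from their replicates. Their median correlation with the other libraries of their state, over genes, was 0.826 to 0.964, against 0.897 to 0.981 for the other 142 libraries. These ranges overlap: edge sample 6 of day 5 is in the list at 0.964, and center sample 5 of day 1 is not, at 0.897. In the center, keratinocyte markers had a median summed level of 331 CPM, against 60740 CPM at the edge and 65800 CPM in day 0 skin. Macrophage and monocyte markers had medians of 1934, 998 and 396 CPM in the same order, and neutrophil markers 492, 1445 and 23.2 CPM. In bulk tissue, fewer cells of a type and less RNA per cell cannot be told apart. The part of these cell types in the results was not tested.

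In day 0 skin IL1B was nearly absent, as was the row named IL1RL1 (median 0.014 CPM per kb), whereas IL1A, IL1RN, IL1R1, IL1RAP, IL1R2, IL18 and IL33 had reads in every sample. IL1B had 0 to 2 counts in the 6 day 0 samples, a level of 0 to 0.127 CPM. IL1A lay at 10.1, 16.7 and 23.3 CPM (lowest, median and highest), and IL1RN at 12.1, 15.2 and 22.7 CPM. Per unit of length IL1R2 had the highest median of the 9 members in day 0 skin, 34.3 CPM per kb, against 8.42 for IL1R1 and 15.2 for IL33. In the plot of levels by day, the members then took different courses.

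**Figure D1:**
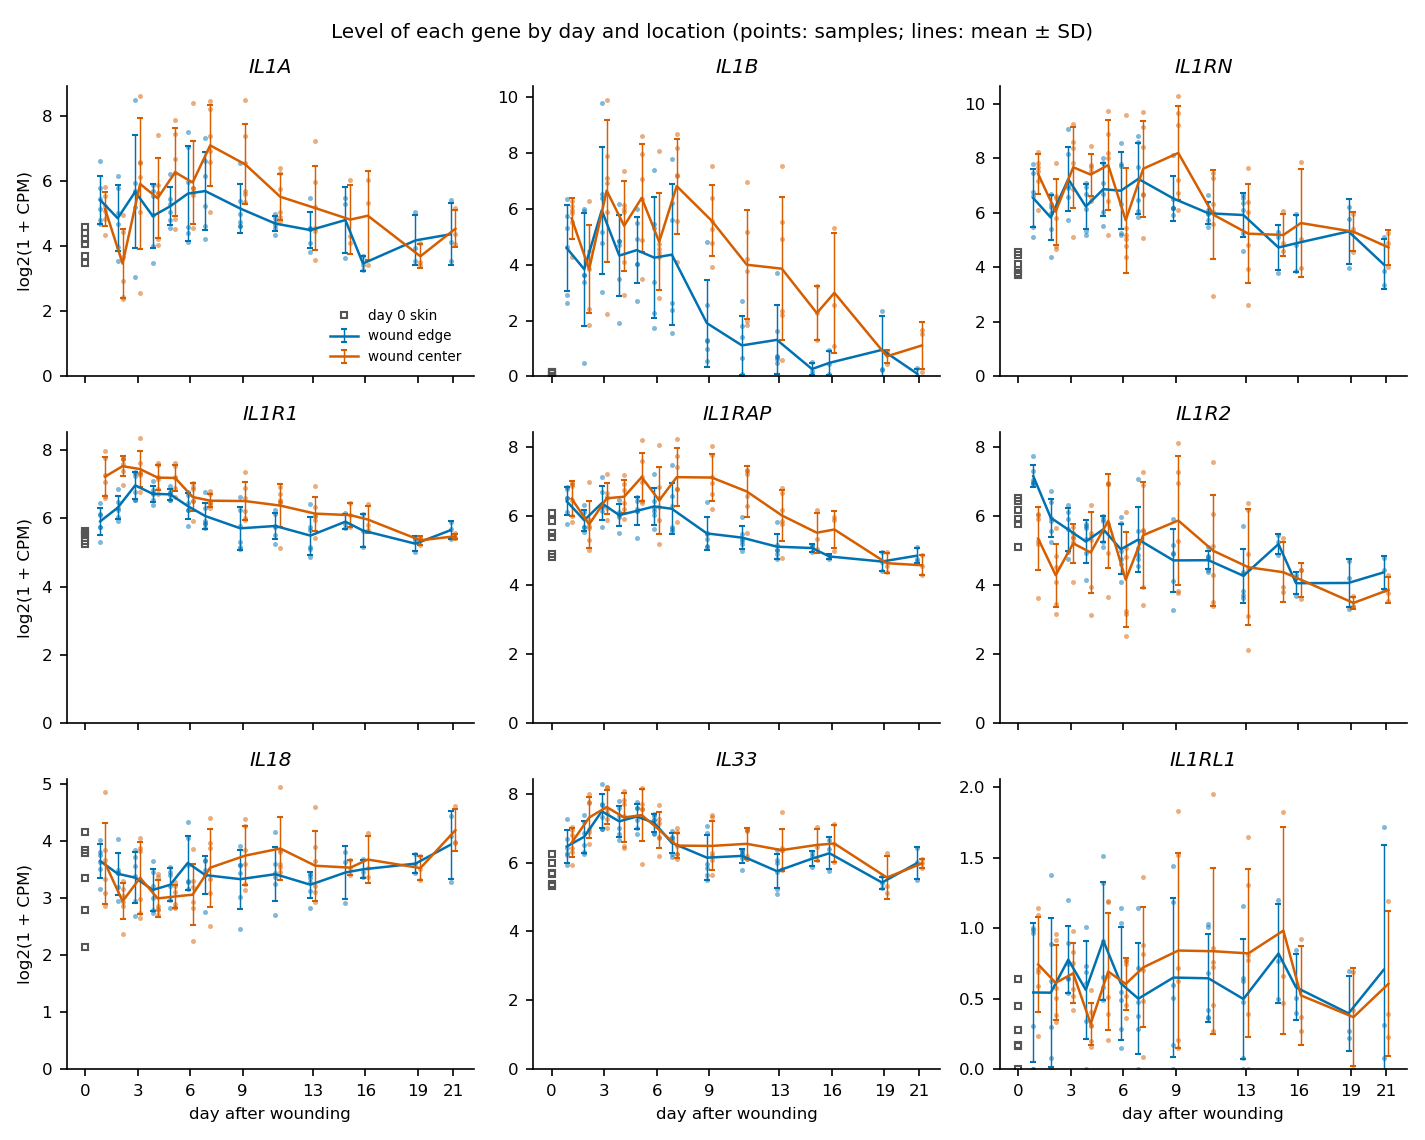
Level of 9 interleukin-1 genes, log2(1 + CPM), against day after wounding, in 9 panels. Points are samples, lines are state means with SD (blue edge, orange center), and squares are the 6 day 0 samples; IL1B rises from a mean of 0.07 to 6.82 in the center on day 7, and IL1R2 has its highest mean, 7.15, at the edge on day 1.

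Against day 0, the members moved mostly upward. In the center, 69 of 126 tests of the 9 named members were higher and 6 were lower at an adjusted p below 0.05, where 28.2% of all gene tests were higher and 27.5% were lower. At the edge, 42 of 126 were higher and 1 was lower, where 19.9% of all gene tests were higher and 14.6% were lower. The median log2 difference over the members' tests was 1.12 in the center and 0.79 at the edge, and over all genes it was -0.02 and -0.01. Adjusted p-values of single genes below are those of the edgeR quasi-likelihood fits, corrected by Benjamini-Hochberg across every gene in a fit, unless another test is named. Fitting each state with day 0 alone and the animal as a block added 17 calls and removed 23.

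IL1B, the secreted ligand made mainly by myeloid cells, rose early and widely. On day 3 in the center it lay at 3.72, 128 and 957 CPM (lowest, median and highest), and at the edge at 7.21, 59.3 and 884 CPM. The highest values of both locations came from the same wound, whose center library was treated as standing apart. On day 7 in the center IL1B lay at 16.3, 146 and 409 CPM. Every one of these samples was above every day 0 sample, and edge and center overlapped on day 3. IL1B was higher than day 0 on 12 days in the center and on 11 days at the edge (adjusted p = 4.62e-09 on day 3 in the center), and no fold is given because day 0 held almost no reads. In the center every sample exceeded every day 0 sample on 13 of 14 days. With the animal as a block the edge call of day 11 was lost (adjusted p = 0.0747). The edge call of day 19 (edgeR, adjusted p = 0.049) rested on 3 samples with 75, 3 and 4 counts, and days 15, 16 and 21 at the edge were not called. On day 21 at the edge IL1B was at 0, 0 and 0.229 CPM.

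IL1A, the ligand stored in keratinocytes and other barrier cells, was called from day 3 on. On day 7 in the center it lay at 31.8, 143 and 348 CPM and on day 7 at the edge at 17.7, 53.1 and 160 CPM. Compared with day 0 it was higher by 3.46 ± 0.69 (log2, SE) on day 7 in the center (adjusted p = 5.89e-06), and it was higher there on 8 days, from day 3 to day 13. At the edge it was higher on 3 days, with a largest log2 difference of 2.44 ± 0.66 on day 3 (adjusted p = 0.00135). On day 3 edge sample 4 lay at 361 CPM and the other edge samples at 7.26 to 59.8 CPM. With the animal as a block none of these 3 edge calls held (day 3: 1.61, adjusted p = 0.209; day 6: 1.86, adjusted p = 0.109; day 7: 1.77, adjusted p = 0.0863), and in the center days 3 and 13 were lost (1.93, adjusted p = 0.147, and 1.5, adjusted p = 0.0745). On day 2 in the center IL1A lay at 4.24, 9.14 and 30.1 CPM, a range that overlapped with day 0. Samples of 1 state spread widely, with an SD of 2.01 on the log2 scale on day 3 in the center.

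IL1RN, the antagonist, was higher than day 0 from day 1 at both locations. On day 1 it lay at 66.9, 195 and 298 CPM in the center and at 33.6, 103 and 221 CPM at the edge. On day 9 in the center it reached 68.3, 366 and 1229 CPM, its highest state mean. All of these samples were above day 0. It was higher than day 0 on 11 days in the center, by up to 5.00 ± 0.83 on day 9 (log2, SE; adjusted p = 8.12e-08), and on 10 days at the edge, by up to 3.69 ± 0.78 on day 7 (adjusted p = 4.39e-05). With the animal as a block the center calls of days 6, 11, 13 and 16 were lost (adjusted p = 0.167, 0.0993, 0.171 and 0.228).

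IL1R1, the signalling receptor, had its highest state mean in the center on day 2. On day 2 it lay at 126, 202 and 216 CPM in the center and at 59.8, 76.8 and 117 CPM at the edge, and these ranges did not overlap. It was higher than day 0 on 12 days in the center, by up to 1.99 ± 0.23 (log2, SE) on day 2 (adjusted p = 1.97e-13), and on 6 days at the edge, by up to 1.44 ± 0.22 on day 3 (adjusted p = 3.8e-08). On days 19 and 21 its level in the center, 36.0 to 46.3 CPM, overlapped with the 37.2 to 48.5 CPM of day 0. IL1RAP, the accessory chain, was higher than day 0 on 9 days in the center and on 4 days at the edge. Its center level lay at 71.4, 130 and 255 CPM on day 9, and the difference from day 0 was 1.88 ± 0.33 (adjusted p = 3.17e-07). With the animal as a block IL1R1 on day 15 in the center (adjusted p = 0.0695) and IL1RAP on day 6 in both locations and day 7 at the edge were lost.

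IL1R2, the decoy, was lower than day 0 in several states. On day 2 in the center it lay at 7.87, 18.8 and 49.0 CPM, against 33.0, 64.8 and 90.1 CPM on day 0, so 5 of 6 samples lay below the lowest day 0 sample. It was lower than day 0 on 5 days in the center (days 2, 6, 16, 19 and 21) and on day 13 at the edge. The log2 difference was -1.63 ± 0.57 (SE) on day 2 in the center (adjusted p = 0.00975) and -2.50 ± 0.78 on day 19 in the center (adjusted p = 0.00739). The day 2 call was lost with the animal as a block (-1.39, adjusted p = 0.0773), as was that of day 6 (-1.18, adjusted p = 0.191), and the block added calls lower than day 0 in 9 other states. The day 2 call was also lost without replicate 3, the day 19 call without replicate 2 and the day 21 call without replicate 1, 2 or 3. On day 19 the 3 center samples lay at 9.23, 9.47 and 11.7 CPM, all below day 0. On day 1 at the edge it lay at 119, 127 and 211 CPM, all above day 0, and the log2 difference of 1.04 did not pass the test (0.85 with the animal as a block, adjusted p = 0.0325). The pseudogene row held at most 60 counts in a sample and was at 3 counts or fewer in 115 of 150 samples. It was lower than day 0 on 4 days in the center and on 1 day at the edge.

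IL33, a nuclear alarmin, had its highest state means on day 3. On day 3 it lay at 128, 181 and 295 CPM in the center and at 125, 182 and 309 CPM at the edge. Both ranges lay above the 39.4 to 74.7 CPM of day 0 and overlapped with each other. It was higher than day 0 on 12 days in the center, by up to 1.84 ± 0.28 (log2, SE) on day 3 (adjusted p = 6.72e-09), and on days 1 to 7 at the edge, by up to 1.71 ± 0.28 on day 3 (adjusted p = 1.07e-07). The row named IL1RL1 held 0 to 68 counts and was higher than day 0 on 4 days in the center and 1 day at the edge, at levels of at most 2.88 CPM. With the animal as a block the calls of IL33 on days 13 and 15 and of the IL1RL1 row on days 9, 11 and 13 in the center were lost.

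IL18 was called in 2 of 28 wound states. Its state means ran between 2.94 on day 2 in the center and 4.18 on day 21 in the center, on the log2(1 + CPM) scale, and no state lay wholly above or below day 0. In day 0 skin it lay at 3.4, 11.0 and 16.8 CPM. It was lower on day 2 in the center (-0.68 ± 0.29, adjusted p = 0.0391) and higher on day 21 in the center (0.94 ± 0.35, adjusted p = 0.0254). Neither call held with the animal as a block (adjusted p = 0.129 and 0.143). Without 1 replicate, IL18 calls higher than day 0 minus calls lower ranged from -3 to 4.

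The comparison of edge and center asks where in the wound each member was expressed. IL1A, IL1B, IL1RN, IL1R1 and IL1RAP were called higher in the center on 1 to 5 days each, and the decoy IL1R2 was called higher at the edge on days 1 and 2. Of 117 tests of the 9 named members over 14 days, 18 were higher in the center and 2 higher at the edge, where 11.0% of all gene tests were higher in the center and 12.5% at the edge. The median log2 difference over the members' tests was -0.41 and over all genes it was -0.02. In the map of edge against center differences, the calls fall on days 1 to 7 for IL1R1 and from day 5 on for IL1A, IL1B and IL1RAP.

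**Figure D2:**
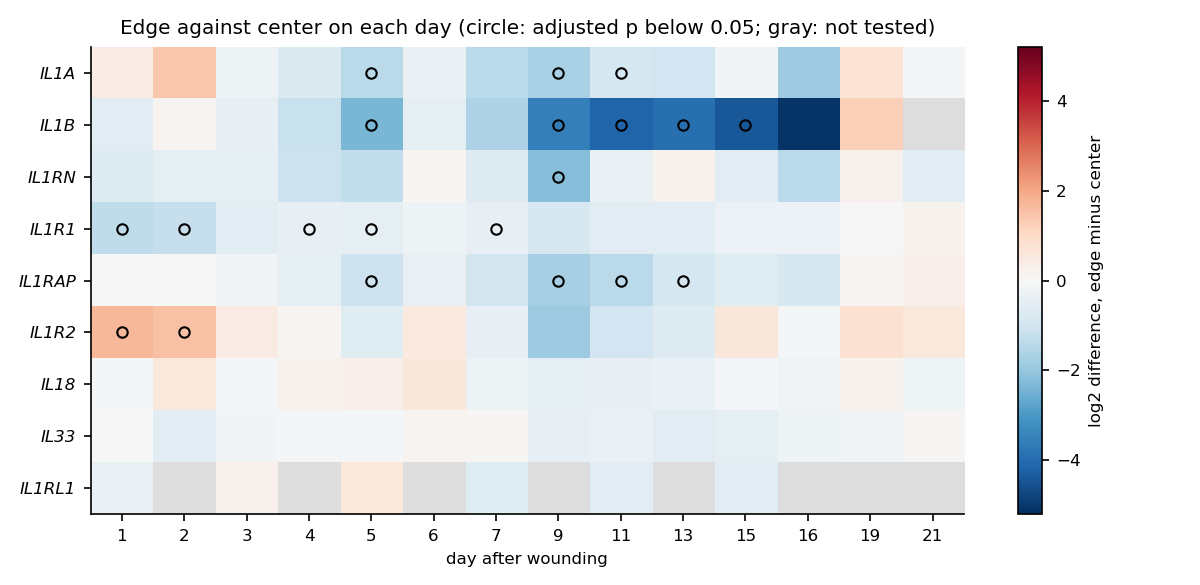
Log2 difference between wound edge and center (red higher at the edge, blue higher in the center) for 9 genes on 14 days; circles mark an adjusted p below 0.05, and gray marks tests not made. IL1B reaches -4.39 on day 15 and -5.10 on day 16, the latter not called, and IL1R2 reaches 1.74 on day 1.

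IL1B separated the locations most strongly after the first week. On day 11 it lay at 0, 1.12 and 5.45 CPM at the edge and at 2.61, 15.2 and 126 CPM in the center (lowest, median and highest). The log2 difference was -4.15 ± 1.12 (SE; adjusted p = 0.0107). On day 9 the edge samples lay at 0.48, 1.43 and 26.9 CPM and the center samples at 14, 42.5 and 185 CPM, a log2 difference of -3.54 ± 0.97 (adjusted p = 0.0144). IL1B was also lower at the edge on days 5 (-2.36), 13 (-3.93) and 15 (-4.39). On day 15 the 3 edge samples held only 1 to 8 counts. It was higher in the center of 59 of 72 wounds, and the mean difference was negative in all 6 animals (-1.62 ± 0.45, SD, n = 6).

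IL1A and IL1RAP parted on many of the same days. IL1A was lower at the edge on days 5, 9 and 11, by -1.41 ± 0.52 (adjusted p = 0.049), -1.70 ± 0.56 (adjusted p = 0.0365) and -0.91 ± 0.28 (log2, SE; adjusted p = 0.0202). IL1RAP was lower at the edge on days 5, 9, 11 and 13. On day 9 IL1RAP lay at 33.1, 41.2 and 83.7 CPM at the edge and at 71.4, 130 and 255 CPM in the center, so that the groups overlapped only narrowly (-1.73 ± 0.32, adjusted p = 0.00134). On day 11 its difference was -1.40 ± 0.28 (adjusted p = 0.00196). IL1RN was lower at the edge on day 9 alone by this test (-2.23 ± 0.70, adjusted p = 0.0282).

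IL1R1 and IL1R2, the signalling receptor and its decoy, moved in opposite directions on days 1 and 2. On day 1 IL1R1 lay at 38.6, 60.2 and 87.5 CPM at the edge and at 95.6, 143.7 and 252.0 CPM in the center. On the same day IL1R2 lay at 119, 127 and 211 CPM at the edge and at 11.3, 48.0 and 65.5 CPM in the center. Neither pair of ranges overlapped. The log2 differences on day 1 were -1.32 ± 0.25 for IL1R1 (adjusted p = 0.00135) and 1.74 ± 0.34 for IL1R2 (adjusted p = 0.00146). On day 2 they were -1.21 ± 0.17 for IL1R1 (adjusted p = 9.87e-05) and 1.54 ± 0.44 for IL1R2 (adjusted p = 0.0151). IL1R1 was also lower at the edge on days 4, 5 and 7, by 0.43 to 0.50. It was higher in the center of 62 of 72 wounds, and IL1R2 was higher at the edge of 43. On day 2 keratinocyte markers had a median summed level of 69340 CPM at the edge and 114 CPM in the center, beside these receptor values; their part was not tested.

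IL18 and IL33 were not called between edge and center on any day by edgeR, and the row named IL1RL1, which passed the filter on low counts on 6 days, was not called either. With the wound as a block, since edge and center biopsies came from the same wound, the calls changed for 14 of the tests. The block added IL33 on days 2 and 9 and IL18 on day 9 (lower at the edge), and IL18 (0.57, adjusted p = 0.0468) and IL1A (1.51, adjusted p = 0.0272) on day 2 higher at the edge. It also added IL1A, IL1B and IL1RAP on day 7, IL1RN and IL1RAP on day 4, and IL1R1 on day 9. It removed IL1A on day 5 (adjusted p = 0.0513), IL1RAP on day 13 (adjusted p = 0.0573) and IL1B on day 13 (adjusted p = 0.0504). Higher-in-center calls thus numbered 24 and higher-at-edge calls 4.

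Of the 20 calls without the block, 6 held under every alternative: IL1R1 on days 1 and 2, IL1R2 on day 1, IL1B on day 11, and IL1RAP on days 9 and 11. Leaving out replicate 3 ended the calls of IL1R2 on day 2 (1.29, adjusted p = 0.058) and of IL1B on day 9 (-3.35, adjusted p = 0.0532), and moved IL1B on day 13 to -2.41 (adjusted p = 0.183). Without replicate 2 the calls of IL1B on day 5 (-2.01, adjusted p = 0.112), of IL1RAP on day 5 (-0.98, adjusted p = 0.0559) and of IL1A on day 11 (-0.69, adjusted p = 0.0854) were lost. The IL1RN call of day 9 was lost without replicate 1 or 3, that of IL1B on day 15 without replicate 1, 2 or 3, and that of IL1RAP on day 13 without replicate 2, 3, 5 or 6. The calls of IL1A on days 5 and 9 and of IL1R1 on days 4, 5 and 7 were each lost when any one of 2 to 5 replicates was left out. Those of IL1A on day 11, IL1B on day 5 and IL1B on day 13 were also lost without other single replicates.

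Days 9 to 13 were compared with days 1 to 3, and days 15 to 21 with days 9 to 13. Both sets of animals stood in each period, but not in equal parts. Days 1, 3 and 11 were of animals 1 to 3, and days 2, 9 and 13 of animals 4 to 6. The comparison of days 9 to 13 with days 1 to 3 is thus partly one between sets of animals. In the center, IL1A, IL1R2, IL1RAP and IL18 were higher on days 9 to 13 than on days 1 to 3 (25.3% of all genes were higher) and IL1R1 and IL33 were lower (29% of all genes were lower). At the edge none of the 9 members was higher by edgeR (22.4% of all genes were) and IL1B, IL1R1, IL1R2, IL1RAP and IL33 were lower (22.0% of all genes were).

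IL1R2 changed by 1.01 ± 0.33 (log2, SE) in the center (adjusted p = 0.00551) and by -1.40 ± 0.33 at the edge (adjusted p = 0.000197). Its length-scaled median went from 19.6 to 16.6 CPM per kb in the center, although the fitted mean was higher, and from 38.4 to 12.2 CPM per kb at the edge. Without replicate 3 the center change of IL1R2 was 0.70 (adjusted p = 0.0937) and that of IL1A 0.80 (adjusted p = 0.0986). IL1RAP changed by 0.62 ± 0.18 in the center and by -0.67 ± 0.18 at the edge. IL1B changed by -3.97 ± 0.66 at the edge (adjusted p = 2.06e-07), and its change of -0.41 ± 0.57 in the center was not called. With the animal as a block the edge change was -4.12 (adjusted p = 0.27). The center call of IL33 was lost without replicate 1, 2, 5 or 6. IL1R1 fell in both locations, by 0.85 in the center and by 0.47 at the edge.

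**Figure D3:**
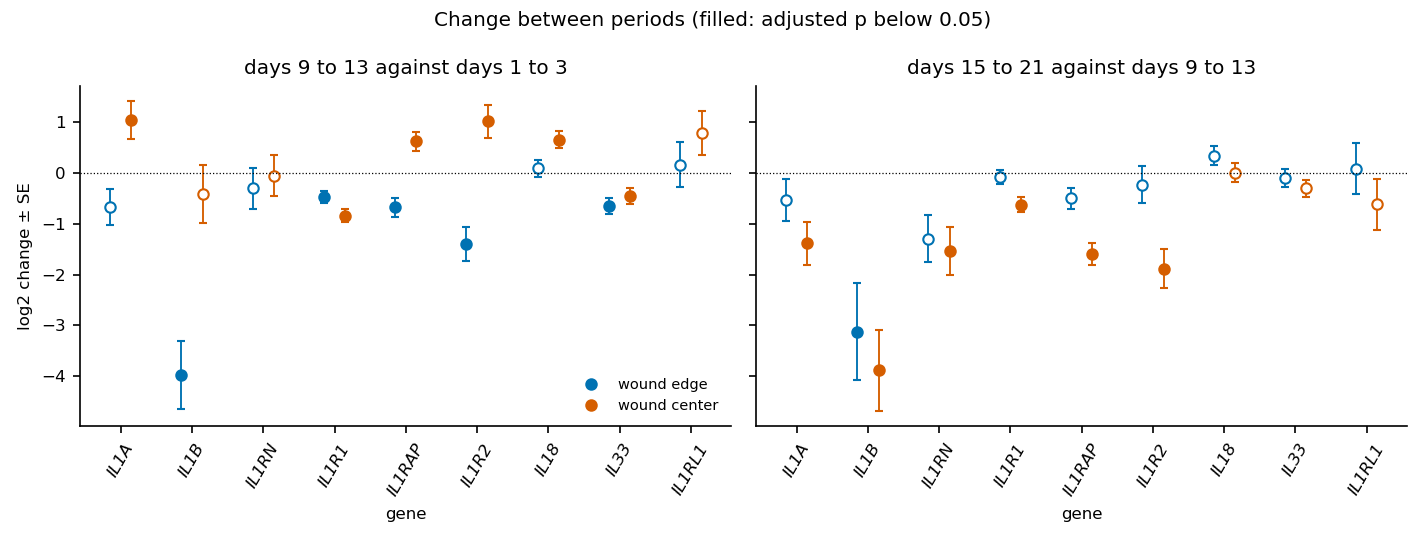
Log2 change with SE of 9 genes between days 9 to 13 and days 1 to 3 (left) and between days 15 to 21 and days 9 to 13 (right), at the edge (blue) and in the center (orange); filled points passed an adjusted p below 0.05. IL1R2 rises by 1.01 in the center and falls by 1.40 at the edge in the left panel.

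The difference between these changes was itself tested. Between days 1 to 3 and days 9 to 13, the edge change minus the center change was called for 4 members, IL1A (-1.71 ± 0.51, adjusted p = 0.00681), IL1B (-3.56 ± 0.85, adjusted p = 0.000574), IL1R2 (-2.42 ± 0.46, adjusted p = 1.9e-05) and IL1RAP (-1.29 ± 0.26, adjusted p = 4.59e-05), where 28.6% of all genes were called in either direction. Without replicate 3 the IL1A difference was -1.44 (adjusted p = 0.0645). Of 10 macrophage and monocyte markers, 6 had a lower edge change in the same comparison. Their summed median on day 9 was 822 CPM at the edge and 2093 CPM in the center. After subtracting each state's mean, their summed level had a Pearson r of 0.11 with IL1A, 0.29 with IL1B, 0.20 with IL1R2 and 0.30 with IL1RAP. These values describe samples within a state and say nothing about changes between states. The part of these markers, or of other cell types, was not tested.

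On days 15 to 21, 6 of the 9 members were lower in the center than on days 9 to 13 (13.4% of all genes were) and none was higher by edgeR (14.2% of all genes were). The falls were 3.88 ± 0.79 for IL1B, 1.88 ± 0.39 for IL1R2, 1.59 ± 0.22 for IL1RAP, 1.54 ± 0.48 for IL1RN, 1.38 ± 0.42 for IL1A and 0.63 ± 0.14 for IL1R1 (log2, SE). Without replicate 3 the IL1RN change was -0.81 (adjusted p = 0.309) and the IL1A change -1.28 (adjusted p = 0.0634). At the edge IL1B was lower (-3.12 ± 0.96, adjusted p = 0.0273; 5.16% of all genes were lower and 2.09% higher), and this call was lost without replicate 2, 3 or 4 (-2.76, -2.90 and -2.0) and with the animal as a block (-2.68, adjusted p = 0.195). The edge change minus the center change was called for IL1RAP (1.09 ± 0.29, adjusted p = 0.00529) and IL1R2 (1.65 ± 0.52, adjusted p = 0.0226), where 10.1% of all genes were called. The IL1RAP call was lost without replicate 1 (1.03, adjusted p = 0.0624) and the IL1R2 call without replicate 1, 2, 3 or 6.

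The antagonist was then set against its ligands, as the log2 ratio of IL1RN to IL1A plus IL1B in CPM per kb with 0.1 added. The antagonist had the higher level in most samples: the ratio was below 0 in 44 of 150. In day 0 skin it lay at -0.55, -0.21 and 0.29 (lowest, median and highest). At the edge it was higher than day 0 on days 5, 7, 9, 11 and 13, and on day 13 the samples lay at 0.31, 1.08 and 2.59, all above day 0. In the center it was higher than day 0 on days 1, 2, 4 and 9, and on day 2 the samples lay at 1.17, 1.49 and 1.85. These 9 of 28 states passed an exact permutation test of the samples against day 0, two-sided and adjusted over 28 states.

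Between locations the side with the higher antagonist ratio differed from day to day, and a change over time was not tested. On day 2 it was higher in the center, by 1.17, with edge samples at -0.88, 0.27 and 1.67 (exact permutation test, two-sided, adjusted p = 0.0455). On day 13 it was higher at the edge, where the center samples lay at -1.30, -0.67 and 0.05 (difference 1.79, adjusted p = 0.0303, exact permutation test). Days 6 and 11 were also higher at the edge, by 1.49 and 1.27 (adjusted p = 0.0455 on both, exact permutation test). None of these 4 days was called when any 1 replicate was left out. The edge minus center difference was 0.09 on day 9, and -0.32, 1.00, -0.57 and -0.41 on days 15, 16, 19 and 21, none of them called. The mean difference over animals was 0.35 ± 0.22 (SD, n = 6), higher at the edge in 6 of 6 animals (exact sign-flip test, two-sided, p = 0.0312, the smallest it allows). It was higher at the edge in 41 of 72 wounds. With IL1A alone as ligand the difference was 0.056 (exact p = 0.656). With both ligands it was 0.400 without replicate 2 (exact p = 0.0625) and 0.203 without replicate 3 (exact p = 0.219).

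The decoy receptor set against IL1R1, the log2 ratio of IL1R2 to IL1R1, was below its day 0 level in most states. In day 0 skin it lay at 1.33, 2.00 and 2.69, so that decoy transcripts outnumbered those of the signalling receptor in all 6 samples. It was lower than day 0 in 26 of 28 wound states, 13 in each location (exact permutation test, two-sided, adjusted over 28 states). The exceptions were day 1 at the edge, where it lay at 1.96, 2.59 and 3.53, and day 9 in the center, where it lay at -1.03, 1.11 and 2.74. The lowest state was day 2 in the center, at -2.74, -1.99 and -0.60 (difference from day 0 -3.82, adjusted p = 0.00673, exact permutation test). Every sample lay below every day 0 sample in 8 of 14 states at the edge and in 9 of 14 in the center. On days 19 and 21, when IL1R1 was near its day 0 level, the ratio in the center was still below every day 0 sample.

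The decoy ratio was higher at the edge in 6 of 6 animals (0.93 ± 0.38, SD, n = 6; exact sign-flip test, two-sided, p = 0.0312, the smallest it allows) and in 50 of 72 wounds. Without replicate 5 it was 0.799 (exact p = 0.0625). By day it was called on days 1 and 2, when the edge samples did not overlap with the center samples (differences 3.16 and 2.94, adjusted p = 0.0152 on both, exact permutation test). These daily tests count both wounds of an animal. With 1 value per animal, 3 against 3, no day can pass, since the smallest p is 0.10. Against day 0, 3 against 6, 24 states still differed for the decoy ratio and 0 for the antagonist ratio. The smallest p there is 0.0238, which passes the adjustment over all states only when many states reach it. The 0 of the antagonist ratio thus decides nothing about single states.

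**Figure D4:**
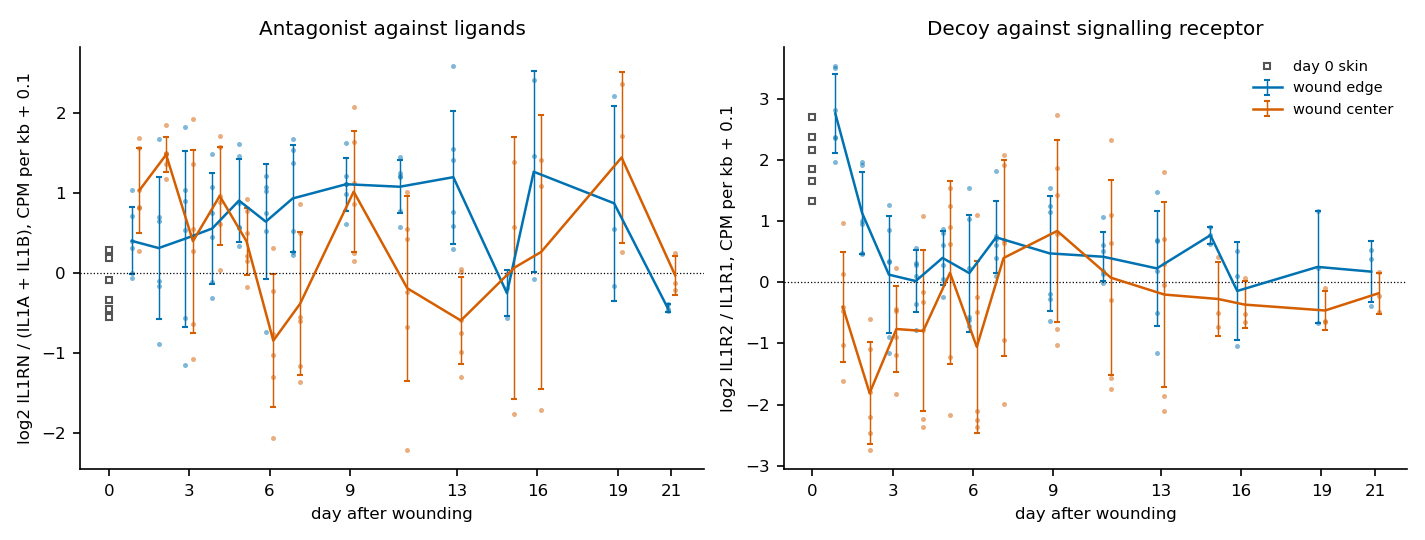
Log2 ratio of IL1RN to IL1A plus IL1B (left) and of IL1R2 to IL1R1 (right), in CPM per kb plus 0.1, against day after wounding; points are samples, lines are means with SD, squares are day 0 and the dotted line is equality. The 6 day 0 samples of the right panel lie between 1.33 and 2.69, and those of day 2 in the center between -2.74 and -0.60.

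Within a state, samples that were high for one member tended to be high for others. After subtracting each state's mean, IL1A and IL1B had a Pearson r of 0.89 (Spearman 0.85) over the wound samples (72 from each location), IL1B and IL1RN 0.82, IL1B and IL1RAP 0.81, and IL1A and IL1RN 0.79. IL1R1 and IL33 had 0.70, and IL1RN and IL1R1 0.03. These values are descriptions, since samples share wounds and animals. Against summed marker levels treated the same way, IL1RN had 0.55 with neutrophil markers and IL1B had 0.35. IL1R1 had 0.48 with endothelial and 0.53 with mast cell markers. With macrophage and monocyte markers IL1R1 had 0.45, IL1B 0.29 and IL1RN 0.19. The sums are of CPM, so abundant markers weigh most. No row was found for CXCR1 and FPR1 of the neutrophil markers, or for CPA3, CMA1, TPSB2 and TPSAB1 of the mast cell markers. The part of these cell types was not tested.

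**Figure D5:**
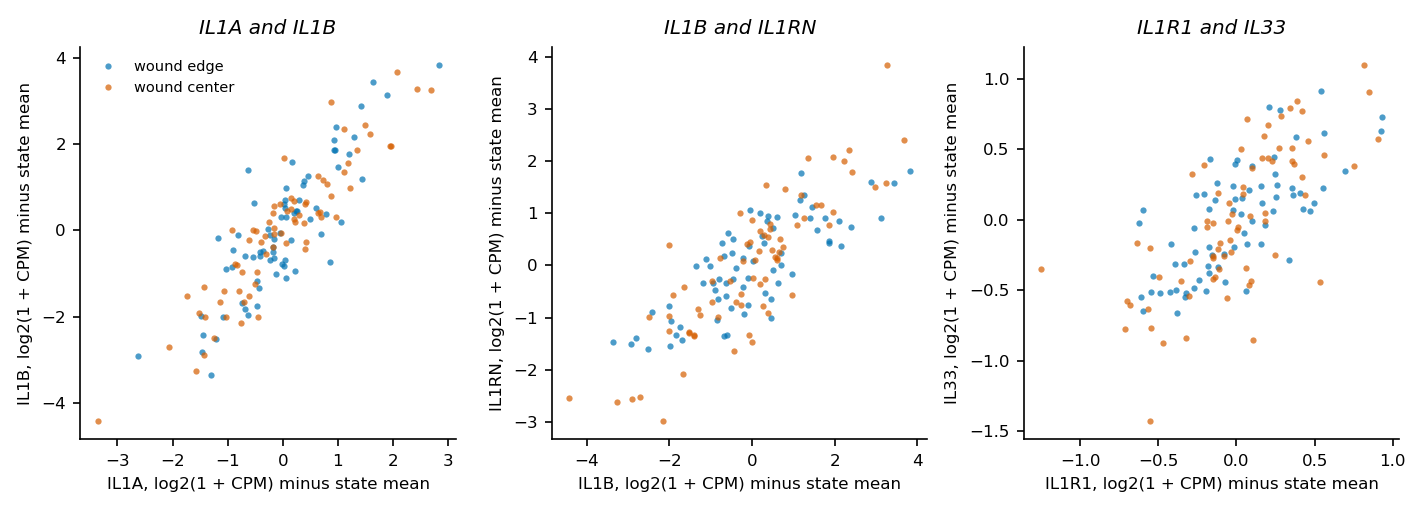
Deviation of each wound sample (72 from each location) from its state mean, log2(1 + CPM), for IL1A and IL1B, IL1B and IL1RN, and IL1R1 and IL33 (blue edge, orange center). The first pair lies closest to a line (Pearson r 0.89), the last least so (0.70).

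Over the 29 state means, the genes most like each member were as follows, with Pearson r. IL1B was closest to MEFV, the pyrin gene (0.98), ACOD1, which makes itaconate in macrophages (0.97), and the glucose transporter SLC2A3 (0.97). IL1RN was closest to GPR84 (0.92), SLAMF7 (0.92) and TMEM187 (0.92). Among the genes closest to IL1A were the chemokines CCL4 (0.87) and CCL3 (0.87), and among those closest to IL1RAP were ATF3 (0.95) and CCL3 (0.94).

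The receptor patterns were closest to other genes. IL1R1 was closest to GFPT2 (0.97), DELE1 (0.96) and PICALM (0.96), and IL33 to FAM120A (0.92), AIDA (0.92) and ERI2 (0.91). IL1R2 was closest to RAB7B (0.91), JOSD1 (0.86) and NFE2L2 (0.86). The patterns of IL18 (DNAH5 0.72, NEDD4L 0.69, SPOCK3 0.67) and of IL1RL1 (TNFRSF9 0.79, IL2RA 0.73 and the T cell gene CD3D 0.73) were matched less closely.

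Genes around the pathway were read in the same edge and center comparison. Of the other family ligands, 26 of 46 tests were higher at the edge and 0 lower by edgeR, where 12.5% of all gene tests were higher at the edge and 11.0% lower. IL1F10 and the IL-36 antagonist IL36RN, both of keratinocytes, were higher at the edge on 10 and 8 days (median log2 difference 5.19 and 4.71), and the ligand IL36A on 5. IL1RL2, the IL-36 receptor, was higher at the edge on 10 days, and IL18RAP and SIGIRR, an inhibitory receptor, were lower on 5 and 4 days. Of the keratinocyte markers, 108 of 182 tests were higher at the edge. The part of keratinocytes in these edge-high genes was not tested.

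Of the genes of cytokine processing and release, 34 of 101 tests (33.7%) were lower at the edge and 5 higher, against 11.0% and 12.5% of all gene tests, among them CASP4 (10 days, median -0.83), NLRP1 (8 days) and the inflammasome sensor NLRP3 (7 days, median -1.15). Of the signalling genes, 21 of 182 (11.5%) were lower at the edge, close to the 11.0% of all gene tests, and 10 (5.49%) were higher, where 12.5% of all were. The kinases IRAK4 and IRAK2 were lower on 8 and 6 days, and TAB3 was higher on 7.

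Of genes known to respond to interleukin-1, 50 of 217 tests (23.0%) were lower at the edge and 5 higher, against 11.0% and 12.5% of all gene tests. The adhesion molecule ICAM1 was lower on 10 days (median -0.79) and SOD2 on 6, and the collagenase MMP1 was lower on 4 days and higher on 3. In the center, 15 of 17 of these genes were lower on days 15 to 21 than on days 9 to 13, where 13.4% of all genes were lower. Macrophage and monocyte markers were lower at the edge in 62 of 140 tests, endothelial markers in 89 of 140 and neutrophil markers in 15 of 99, with 23 higher.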

How the data were processed

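RNA was isolated from porcine skin and wound biopsies and sequenced as poly-A selected libraries on an Illumina instrument with paired reads. The authors deposited raw counts per gene in 1 table with gene name, description, contig, length and biotype. The aligner, the counter and the genome build are not given in the sources used here.

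Members were matched by gene name or, where that was absent, by the gene name in the protein description. The members, gene lists and tests were chosen with earlier results of these data known. For list genes with several rows the row with the most counts was used. CPM used library totals, and CPM per kb the table's gene length. Edge and center were compared on each day's samples, and day 0, period and interaction contrasts in 1 fit of all 150 samples, with edgeR 4.0.16 (TMM, filterByExpr, quasi-likelihood test), R 4.3.3, and Benjamini-Hochberg adjustment. The filter kept all 10 rows in the large fit. Among the daily fits it left out the pseudogene on all 14 days, the IL1RL1 row on 8 and IL1B on day 21. SE was the coefficient over the square root of F. Ratio tests were exact permutations in SciPy 1.17.1. DESeq2 1.42.0 and the other alternatives are covered in the closing section. The fits were tested on simulated counts.

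Replicate numbers were given by animal and wound, so the same number on a day is the same wound. Deviations of edge and center libraries from their state means correlated at a mean of 0.275 for 72 same-wound pairs and -0.063 for 324 other pairs (13704 genes). Named genes were the 9 members, up to 3 genes per pathway list called on the most days between edge and center, and the 3 genes most like each member over 29 state means among genes with a mean of at least 1 in 1 state. Some of these are not reported here. Library totals were 13133379 to 24895572, and intervals from counts were not given because replicates were at hand.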

Additional observations from a re-analysis of the deposited data

Results flagged for a closer look

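The edge and center changes differed by the test of the difference itself for 6 results. The edge change minus the center change from days 1 to 3 to days 9 to 13 was -1.71 for IL1A, -3.56 for IL1B, -2.42 for IL1R2 and -1.29 for IL1RAP, and from days 9 to 13 to days 15 to 21 it was 1.65 for IL1R2 and 1.09 for IL1RAP (log2, edgeR).

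Single samples far from the others of their state were sought in the groups of 6 samples by the gap to the nearest sample as a share of the group's range. There were 20; chance gives about 1 in 20 groups, here 12.6. Center sample 4 of day 6 was the highest for IL1A (share 0.676), IL1B (0.635) and IL1RN (0.798). Edge sample 4 of day 13 was the highest for IL1B (0.649), IL1R2 (0.634) and IL1RAP (0.64). Edge sample 4 of day 9 was the highest for IL1RN (0.735) and IL1RAP (0.691), and center sample 3 of day 11 for IL18 (0.744) and the IL1RL1 row (0.651).

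Others were the highest for IL33 on day 13 in the center (0.628) and for the IL1R2 pseudogene on day 1 in the center (0.626) and day 2 at the edge (0.71). The lowest samples were found for IL1B on day 1 in the center (0.637), IL1R1 on day 11 in the center (0.752, a library that stood apart from its state), IL1R2 on days 1 and 3 in the center (0.64 and 0.729), IL1RAP on day 5 at the edge (0.645), IL18 on day 7 at the edge (0.724) and the antagonist ratio on day 6 at the edge (0.643).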

How the results depend on the processing

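No reported value reversed under an alternative that was run, but IL18 calls against day 0, higher minus lower, ranged from -3 to 4 without 1 replicate. Of 20 edge and center calls, 6 held under every alternative, and so did 75 of 123 against day 0, 10 of 19 between periods and 3 of 6 of the differences between locations. The calls against day 0 and between periods are counted here over the 9 members and the IL1R2 pseudogene row. Calls higher at the edge numbered 2, and 4 with DESeq2, 4 with the wound as replicate block and 1 to 4 without 1 replicate. Calls higher in the center numbered 18, and 9 to 15 without 1 replicate. Without 1 replicate, calls lower than day 0 numbered 4 to 15 (12 with all, the pseudogene row included) and period calls higher 2 to 5 (4 with all). Without 1 replicate the antagonist ratio's edge minus center difference ranged over 0.203 to 0.414, and it was 0.056 (p = 0.656, exact sign-flip test) with IL1A alone as ligand; the decoy difference was 0.799 to 1.02.

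The number of days with a called antagonist ratio, 4, and decoy ratio, 2, was 0 without any 1 replicate, with sign flips within wounds as replicate block, and with 1 value per animal. For the decoy ratio the test without 1 replicate is limited by its construction. Its smallest p with 5 against 5 is 0.0079, which adjusts to 0.0556 when 2 of 14 days reach it. With 4 of 14 days at that p the antagonist ratio would have passed, so the construction did not fix its loss. The smallest p is 0.0312 with sign flips and 0.10 with 1 value per animal, so those tests are limited for both ratios. Without 1 replicate, states differing from day 0 numbered 5 to 10 for the antagonist ratio and 15 to 25 for the decoy ratio. The lower numbers arose where 2 samples against 5 cannot go below 0.0952. With 1 value per animal these states numbered 0 and 24. The smallest p was then 0.0238, which passes the adjustment only when many states reach it, so the 0 decides nothing about single states. The number of reads limits the IL1RL1 and pseudogene rows.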
